A study of Mus musculus with 9 samples.

Results

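Dhh knockout erythroblasts from mouse spleen were compared with wildtype erythroblasts across 9543 of the 20368 genes in the deposited table, those with at least 1 FPKM (reads or fragments scaled by transcript length and library size) in at least 3 of the series' 9 libraries. The wildtype group held 3 libraries and the knockout group, genotype Dhh-/-, held 3 libraries. All came from the spleens of C57BL/6 mice aged 4 weeks. Cells were sorted for CD71, the transferrin receptor, together with Ter119, an erythroid surface antigen, a fraction that the submitters call erythroblast population II. The other 3 libraries, genotype Dhh+/-, came from mice of the same strain and age, and their values are given only beside the knockout ones. The labels name no animal for a library and do not tell how the null allele was made. A p-value here therefore measures library-to-library spread, which may be partly technical.

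Desert hedgehog, the product of Dhh, is one of the secreted Hedgehog ligands. A Hedgehog ligand binds the receptor Ptch1 on the receiving cell, which frees the membrane protein Smo to turn Gli transcription factors from repressors into activators, and Ptch1 and Gli1 are themselves targets of that signal. Spleen erythroblasts at the CD71 and Ter119 positive stage divide a few more times while they fill with hemoglobin, then condense and expel the nucleus.

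No gene passed the test for a difference between knockout and wildtype libraries. The limma model over all 9 libraries called 0 of 9543 genes (0% of genes tested) at a Benjamini-Hochberg adjusted p below 0.05, with a lowest adjusted p of 0.9997. At an unadjusted limma p below 0.05 there were 43 genes (0.451%), of which 19 were higher in knockout libraries (0.199%) and 24 were lower (0.251%). Evenly spread p-values would put 477 genes below 0.05, far more than were found. The 3 libraries of one genotype lay wholly above or below the other 3 for 237 genes (2.48%), 103 higher (1.08%) and 134 lower (1.4%) in knockout libraries. Voom on the reads recovered from the values gave 0 calls and 51 genes at an unadjusted p below 0.05. With 1 library left out the adjusted count stayed at 0, while the 43 became 133, 88 and 228 without wildtype replicates 1, 2 and 3 and 252 without knockout replicate 2. Between the means of the genotypes, 10 genes differed by more than 2-fold on the log2(FPKM + 1) scale. Between wildtype replicates 1 and 3, which share a genotype, 1649 genes (17.3%) differed by more than 2-fold. 1496 of these were lower in replicate 3 and 153 were higher. Single libraries vary more than means of 3, so the 10 and the 1649 are not like measures. This pair was also the widest. The other same-genotype pairs had 138 to 1155 such genes, and pairs of 1 wildtype and 1 knockout library had 72 to 1590.

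**Figure D1:**
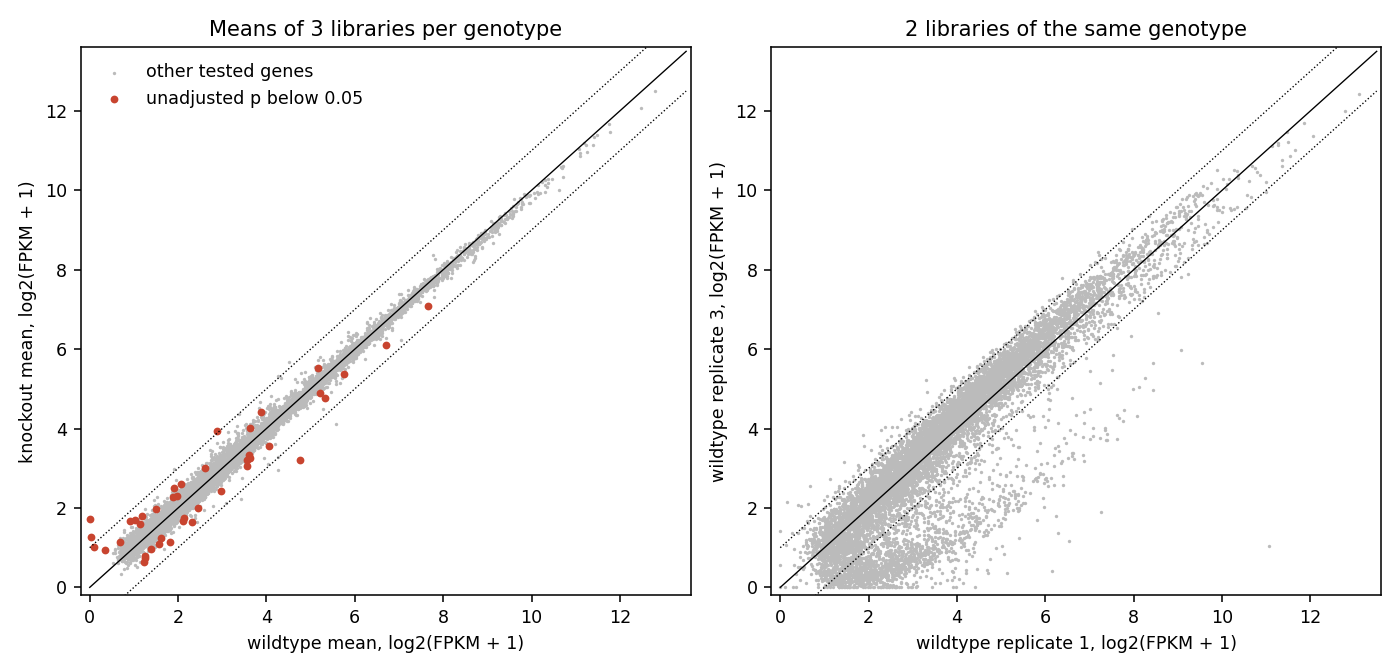
Left, mean log2(FPKM + 1) of the 3 knockout libraries against that of the 3 wildtype libraries for 9543 genes, with the 43 genes at an unadjusted p below 0.05 in red; right, wildtype replicate 3 against wildtype replicate 1. Solid lines mark equality and dotted lines a 2-fold difference. Outside the dotted lines lie 10 genes on the left, between means of 3 libraries, and 1649 on the right. The right panel sets single libraries against each other and shows the widest same-genotype pair.

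The 95% interval of each gene shows how precisely its difference was estimated. It is not adjusted for the number of genes tested. A gene whose interval leaves out equality could therefore still miss the adjusted threshold. The distance from the difference to either end of its interval had a median of 0.42 on the log2 scale, which corresponds to 1.34-fold. It was 0.57 for the 1417 genes with a mean below 2 FPKM and 0.36 for the 367 genes at 200 FPKM or more. The whole interval lay within a 2-fold change for 8266 genes (86.6%) and within a 1.5-fold change for 5831 genes (61.1%). The pseudocount of 1 makes the scale understate the differences of low genes. Much wider intervals, of more than 2.5 to each side, were found for markers of other blood cells such as Gzma, a granzyme of T and NK cells, and Ccl5, a chemokine of T cells.

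**Figure D2:**
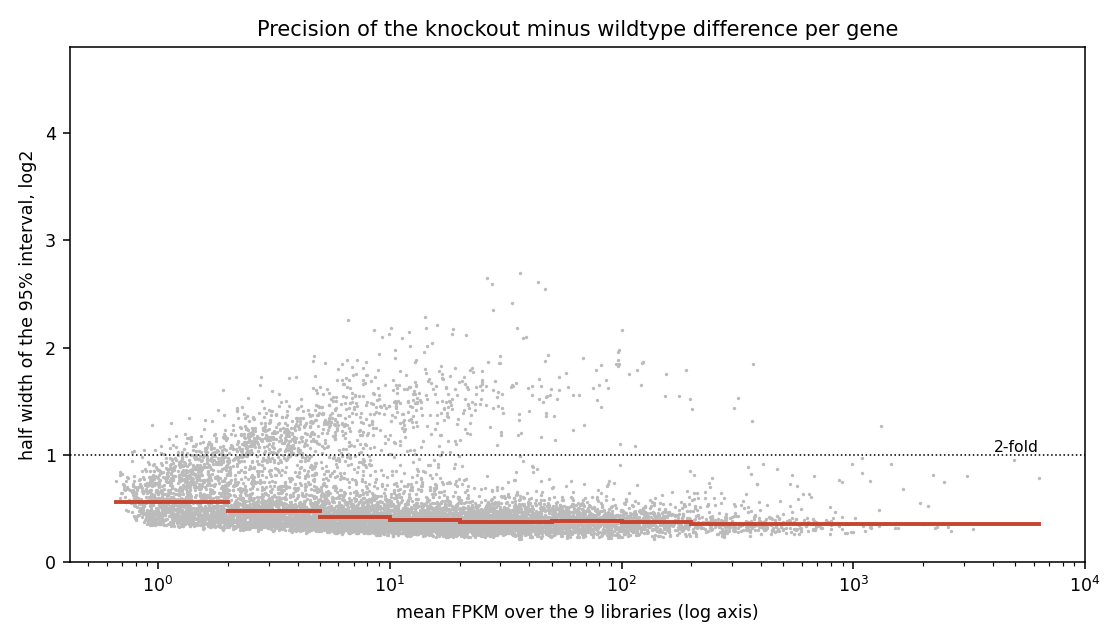
Distance from the knockout minus wildtype difference to either end of its 95% interval (log2) against the mean FPKM of each gene on a log axis, with 1 point per gene and red lines for the median in each range of levels. The medians lie between 0.36 and 0.57, and 1 gene lies above the plotted range.

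Libraries differed within each genotype. Wildtype replicates 1 and 2 and knockout replicate 2 had 8579569 to 9657192 reads, and wildtype replicate 3 and knockout replicates 1 and 3 had 13052813 to 13344826 reads. Wildtype replicate 3 stood apart in markers of other blood cells, with the lowest level of the 6 libraries for 85 of 90 tested leukocyte markers. Knockout replicate 2 stood apart in Y-linked genes, with a summed level of 1.21 FPKM against 66.6 to 106 FPKM in the other 8 libraries. Eif2s3y, a Y-linked translation factor gene, was at 57.7, 41.1 and 42.7 FPKM in wildtype replicates 1 to 3 and at 67.1, 0.599 and 46.4 FPKM in the knockout replicates. Markers of the sorted stage were high in all 6 libraries. Gata1, the lead transcription factor of the lineage, was at 171 to 254 FPKM and Alas2, the first enzyme of erythroid heme synthesis, at 3284 to 7090 FPKM.

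Dhh itself was listed at 0 in the 3 wildtype and the 3 knockout libraries. Its level therefore does not check the genotype labels. Of the 17 ligands, receptors and Gli factors, 15 were below 1 FPKM in all 6 libraries and 2 passed the filter. Smo was between 0.244 and 0.506 FPKM. Gli1 was at most 0.0836 FPKM, and Gli2 and Gli3 were listed at 0 throughout. Ptch1 was at 2.03, 2.56 and 3.60 FPKM in wildtype replicates 1 to 3 and at 2.99, 2.33 and 1.52 FPKM in the knockout replicates, a log2 difference of -0.19 ± 0.24 (SE), and the groups overlapped. Sufu, which holds Gli proteins in the cytosol, was at 1.81, 2.55 and 1.97 FPKM in wildtype and at 1.84, 2.83 and 1.40 FPKM in knockout libraries. The range of each genotype covered most of the other for both genes.

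Cytosolic regulators of Gli proteins were present at higher levels. 14 of 20 passed the filter, 0 passed the limma test, and 0 had libraries that did not overlap between genotypes, against 2.48% of all genes. Their median log2 difference was -0.01, beside 0.01 over all genes tested. Csnk1a1, a casein kinase that marks Gli proteins for processing, was at 94.6, 96.3 and 123 FPKM in wildtype and at 110, 88.4 and 111 FPKM in knockout libraries. Prkaca, the catalytic subunit of protein kinase A, was at 14.1, 17.1 and 23.0 FPKM in wildtype and at 17.4, 17.8 and 17.3 FPKM in knockout libraries. The 3 knockout values of Prkaca lay inside the wildtype range. Of the 15 Hedgehog target genes 4 passed the filter, with a median of 0.06 and 0 non-overlapping members.

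The lowest p-value belonged to Mettl7a3, a methyltransferase-like gene on the chromosome of Dhh (ENSMUSG00000058057, chr15:100334929-100340375, plus strand, mm10). In wildtype all 3 libraries had it at 0, and knockout replicates 1 to 3 had it at 1.83, 1.98 and 3.24 FPKM. No knockout library came near the wildtype ones. In reads, the wildtype libraries held 0 and the knockout libraries held 36, 27 and 61, 124 in all. Against a floor of 3 reads over the 3 wildtype libraries (0.0651 FPKM), the level pooled over the knockout libraries (2.38 FPKM) was at least 36.5-fold higher. This bound covers counting error only. The fitted log2(FPKM + 1) difference was 1.72 ± 0.35 (limma, unadjusted p = 0.000888, adjusted p = 0.9997), so the gene did not pass over all genes. The heterozygous libraries were at 2.10, 0.759 and 0.0453 FPKM.

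The adjoining row, which joins Mettl7a2 with Methig1 (chr15:100353149-100384436), had the next lowest p-value. It was at 0.0704, 0 and 0 FPKM in wildtype replicates 1 to 3 and at 1.01, 1.13 and 2.32 FPKM in the knockout replicates, from 2, 0 and 0 reads against 45, 35 and 99 reads. The log2 difference was 1.25 ± 0.33 (limma, unadjusted p = 0.00467, adjusted p = 0.9997). Heterozygous libraries were at 1.53, 0.461 and 0 FPKM. In both rows heterozygous replicate 1 was near the knockout libraries and heterozygous replicate 3 near the wildtype ones. Both rows passed the filter only through knockout and heterozygous libraries, so the filter itself selects such a pattern.

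Mettl7a1, the third gene of the cluster, was the abundant one. It was at 60.1, 63.5 and 46.7 FPKM in wildtype and at 58.6, 29.3 and 57.4 FPKM in knockout libraries, a log2 difference of -0.28 ± 0.31, and the groups overlapped. Heterozygous libraries were at 35.9, 37.0 and 66.1 FPKM. Mettl7b, the family member on another chromosome, was listed at 0 in all libraries. The 3 copies on chromosome 15 are alike in sequence, so that reads can fit more than 1 of them. Of the 50-base words of the Mettl7a3 transcript, 46.5% also occur in another gene, and of those of the Mettl7a2 and Methig1 row 48.2%. Within the coding part of Mettl7a3 (732 bases, GENCODE M21), 14.9% of the words occur in Mettl7a1, 59.4% in Mettl7a2 and 28.8% in Methig1. How the authors assigned such reads is not given in the sources used here. The longest stretches that the coding part of Mettl7a3 shares letter for letter with 2 of its neighbours are shown because they bear on this sharing. They were read from GENCODE M21 transcripts on build GRCm38, plus strand, 81 bases at chr15:100335307-100335387 for Mettl7a1 and 160 bases at chr15:100335146-100335305 for Methig1, and each lies in an exon.
Mettl7a3 and Mettl7a1: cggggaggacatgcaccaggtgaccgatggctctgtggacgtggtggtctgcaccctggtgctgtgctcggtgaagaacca
Mettl7a3 and Methig1: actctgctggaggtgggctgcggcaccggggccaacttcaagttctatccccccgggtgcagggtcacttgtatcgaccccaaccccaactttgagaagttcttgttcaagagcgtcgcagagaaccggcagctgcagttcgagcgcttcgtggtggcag
With Mettl7a2 the longest shared run was longer still, at 258 bases across an exon junction.

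Among the 30 genes of lowest p, 14 were higher and 16 lower in knockout libraries, 29 had libraries that did not overlap, and 16 had a mean below 5 FPKM. These counts follow from choosing by p and test nothing. Fah, the last enzyme of tyrosine breakdown, was at 1.16, 1.29 and 0.708 FPKM in wildtype replicates 1 to 3 and at 2.65, 2.34 and 1.75 FPKM in the knockout replicates. The lowest knockout value was above the highest wildtype value, and the log2 difference was 0.66 ± 0.18 (limma, unadjusted p = 0.0054, adjusted p = 0.9997). The list that holds it, tyrosine catabolism and fatty acid binding, had a negative difference for 9 of 12 genes and a median of -0.14. Gcsh, the carrier protein of glycine cleavage, was at 0.776, 1.14 and 0.783 FPKM in wildtype and at 1.60, 3.80 and 1.61 FPKM in knockout libraries, with knockout replicate 2 highest. Gstp1, a glutathione S-transferase, was at 9.91, 14.0 and 18.6 FPKM in wildtype and at 17.6, 24.3 and 19.9 FPKM in knockout libraries, and was the gene of the 30 whose groups overlapped. It shares 33.7% of its 50-base words with Gstp2 and a pseudogene.

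Smarcd1, Kdm6a and Polr2g, with roles in chromatin or transcription, were also among the 30, and differed in direction. Smarcd1 (chr15:99702129-99713991), a subunit of the SWI/SNF remodelling complex, was at 8.88, 11.3 and 12.4 FPKM in wildtype and at 7.96, 6.75 and 7.09 FPKM in knockout libraries, a log2 difference of -0.51 ± 0.15 (limma, unadjusted p = 0.00853, adjusted p = 0.9997). It was the single member of the 21 tested SWI/SNF subunits with non-overlapping libraries (4.76%, against 2.48% of all genes), and the median of that list was -0.03. Smarcd1 was named for its low p, and the list was chosen with earlier results of these data known. The share of 4.76% therefore tests nothing. Kdm6a, a histone H3 demethylase gene on the X chromosome that escapes X inactivation, was at 36.9, 31.7 and 35.7 FPKM in wildtype and at 44.6, 47.5 and 42.4 FPKM in knockout libraries. All 3 knockout values were above the wildtype ones, knockout replicate 2 was highest, and without that replicate the log2 difference was 0.32 in place of 0.36. Polr2g, a subunit of RNA polymerase II, was at 35.4, 33.5 and 39.3 FPKM in wildtype and at 30.5, 27.2 and 29.4 FPKM in knockout libraries. The differences of these 3 genes were under 1.5-fold.

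Other genes of low p and lower level in knockout libraries had various roles, and their lists did not all share the direction. Bloc1s1, a subunit of the BLOC-1 complex of lysosome-related organelles, was at 35.0, 37.1 and 46.9 FPKM in wildtype and at 24.8, 21.9 and 32.6 FPKM in knockout libraries. The counts of Bloc1s1 are uncertain, since 47.7% of its 50-base words also occur in Rdh5 or a predicted gene. Its list, lysosome and BLOC-1 transport, had a median of -0.04 over 26 genes. Dynlrb1, a light chain of the dynein motor, was at 48.7, 54.7 and 57.1 FPKM in wildtype and at 47.4, 36.4 and 37.4 FPKM in knockout libraries, while its list, dynein and dynactin, had a positive difference for 12 of 19 genes and a median of 0.04. Fabp5, a fatty acid binding protein gene of the same list as Fah, was at 8.90, 5.69 and 6.18 FPKM in wildtype and at 4.50, 4.43 and 4.29 FPKM in knockout libraries, where the 3 values lay close together. Higd1a, a hypoxia-induced protein of the mitochondrial inner membrane, was at 10.03, 11.1 and 13.2 FPKM in wildtype and at 9.66, 8.02 and 8.002 FPKM in knockout libraries. Ppa2, the mitochondrial pyrophosphatase, was at 10.6, 9.52 and 12.4 FPKM in wildtype and at 9.05, 8.13 and 7.43 FPKM in knockout libraries. For Dynlrb1, Higd1a and Ppa2 the gap between the groups was smaller than the spread within wildtype.

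**Figure D3:**
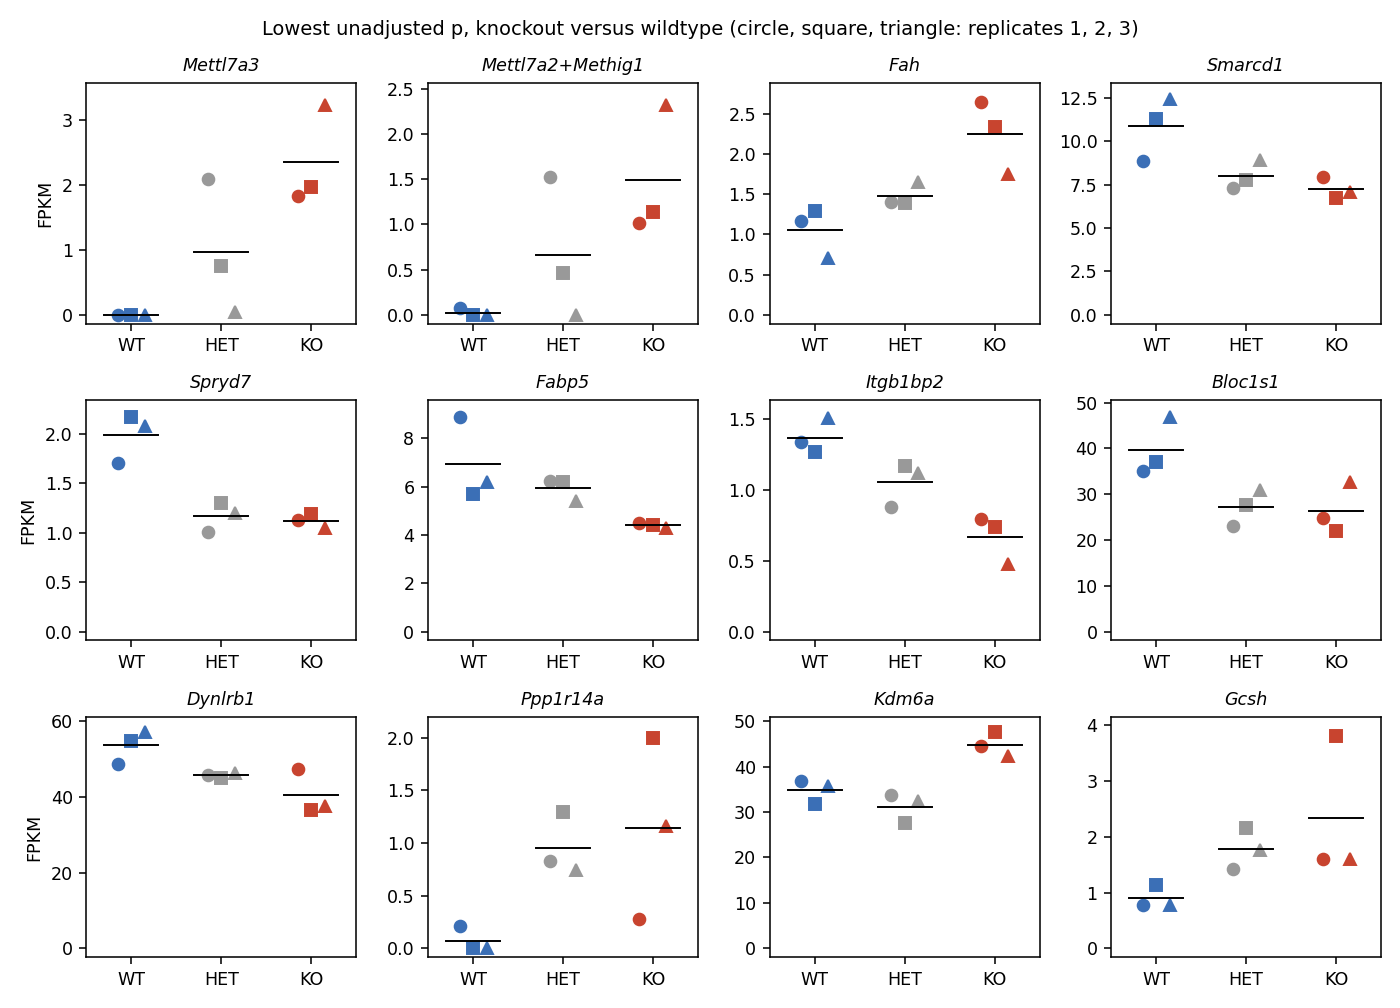
FPKM of the 12 genes of lowest unadjusted p in each wildtype (WT), heterozygous (HET) and knockout (KO) library, with replicates 1, 2 and 3 as circle, square and triangle and a line at each mean of 3. In each panel the WT and KO points do not overlap, and the HET points of Mettl7a3 run from 0.0453 to 2.10 FPKM.

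The low p-values were unevenly placed in the genome. Chromosome 15 held 8 of the 43 genes, or 2.09% of its 382 tested genes, and the next by number, chromosome 9, held 5 of 528 (0.947%). Within 2 Mb of the Dhh start site (position 98898540, minus strand), 7 of 43 tested genes were at an unadjusted limma p below 0.05 (16.3%), against 36 of the 9500 other genes (0.379%). In the same window 8 of 43 genes had non-overlapping libraries (18.6%), 4 in each direction, against 2.41% of the genes outside it. Beyond 10 Mb from Dhh on the same chromosome 1 of 278 genes was at a p below 0.05 (0.36%). The 7 genes were no more than 7 when the window was widened to 5 Mb (83 genes) or 10 Mb (104 genes). The Mettl7a3 row and the adjoining row are 2 of the 7, share sequence and passed the filter only through knockout and heterozygous libraries. With a filter at 5 FPKM, which removes both, 4 of 29 genes of the window were at a p below 0.05 (13.8%). Over all genes that filter gave 18 of 6490 (0.277%). None of the 7 passed the adjusted threshold, and that such a cluster would be looked for around Dhh was known from earlier results of these data. The count within 2 Mb was 3 without knockout replicate 3 and between 5 and 7 without any other single library.

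The genes of low p in this window did not share 1 direction. Tuba1a, an alpha-tubulin gene 0.0552 Mb from the Dhh start, was at 9.99, 5.64 and 4.56 FPKM in wildtype and at 10.8, 17.8 and 14.9 FPKM in knockout libraries, a log2 difference of 1.04 ± 0.38 (limma, unadjusted p = 0.0217, adjusted p = 0.9997). Of its 50-base words 72.9% also occur in Tuba1c, Tuba1b or a predicted gene. Cela1, a gene of the elastase family 1.79 Mb away, was at 20.7, 20.3 and 42.2 FPKM in wildtype and at 12.8, 12.2 and 3.34 FPKM in knockout libraries, a log2 difference of -1.55 ± 0.60 (limma, unadjusted p = 0.0286, adjusted p = 0.9997). It shares no 50-base word with another gene. Dazap2, 1.72 Mb away, was the most abundant of the 7, at 216, 203 and 186 FPKM in wildtype and at 123, 169 and 121 FPKM in knockout libraries. Smarcd1 lies 0.804 Mb away and the Mettl7a3 row 1.44 Mb away.

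Other genes of the window lay on the opposite side of Dhh, were nearer the threshold or had non-overlapping libraries without a low p. Tmem106c, on the opposite side and one of the 7, was at 3.59, 2.81 and 1.46 FPKM in wildtype and at 1.49, 1.49 and 0.752 FPKM in knockout libraries, and wildtype replicate 3 overlapped with the knockout libraries. Rhebl1, a small GTPase gene whose annotated span overlaps that of Dhh, was at 1.23, 1.26 and 1.73 FPKM in wildtype and at 2.12, 1.83 and 2.22 FPKM in knockout libraries (log2 difference 0.35 ± 0.16). It shares 14.2% of its 50-base words with Dhh transcripts, so its reads and those of Dhh cannot be told apart in that part. Larp4, 1.07 Mb away, was at 3.69, 4.15 and 3.87 FPKM in wildtype and at 3.43, 3.56 and 2.99 FPKM in knockout libraries. Its libraries did not overlap, but the log2 difference was only -0.18 ± 0.15 (limma, unadjusted p = 0.247). Slc11a2, the iron transporter DMT1, lies 1.53 Mb from Dhh and had overlapping groups at 39.0, 47.8 and 54.4 FPKM in wildtype and 42.4, 25.7 and 35.4 FPKM in knockout libraries. The heterozygous libraries held values between and beyond the others: Cela1 was at 6.00, 13.3 and 29.7 FPKM, Tuba1a at 15.02, 11.5 and 5.19 FPKM and Dazap2 at 108, 183 and 131 FPKM. Heterozygous and knockout differences share their wildtype libraries.

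**Figure D4:**
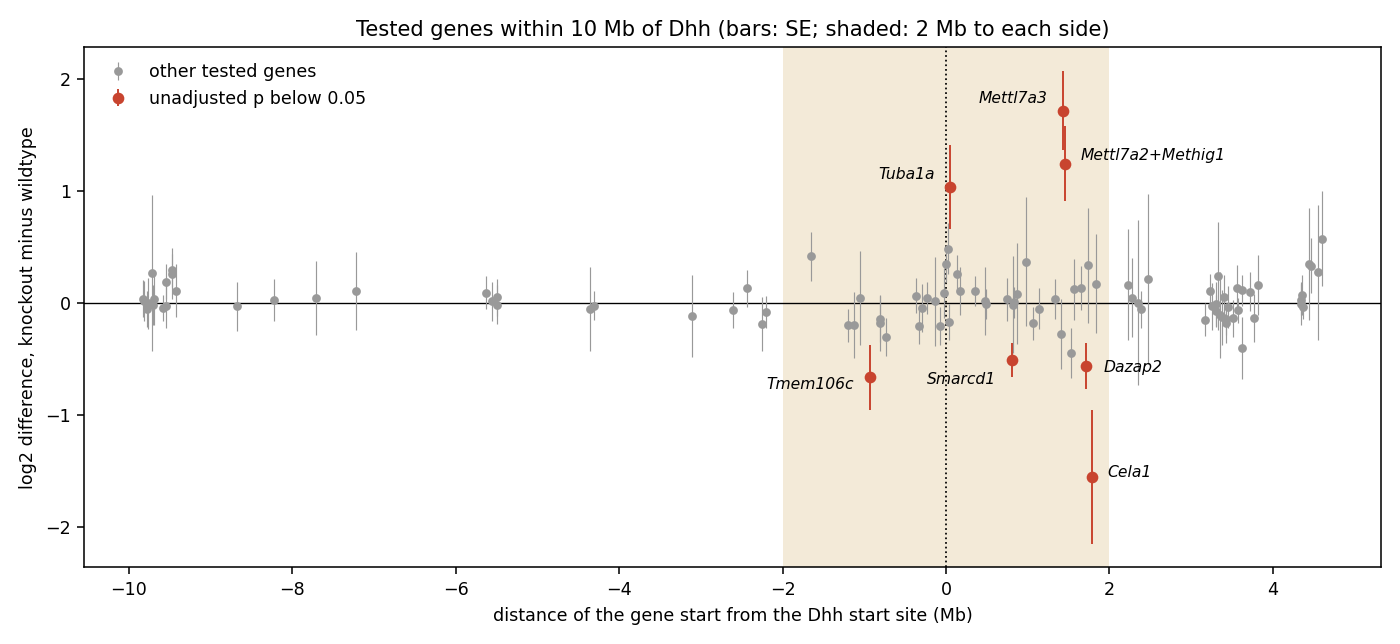
Knockout minus wildtype log2 difference of each tested gene within 10 Mb of Dhh, with its SE, against the distance of the gene start from the Dhh start site; the last tested gene of the chromosome lies 4.6 Mb beyond Dhh. The 7 genes in red are at an unadjusted p below 0.05 and all lie in the shaded 2 Mb to each side of Dhh.

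The erythroid program itself gave values that overlapped between the genotypes, as did nearly all genes tested. Of the 25 tested erythroid transcription factors 0 had non-overlapping libraries, against 2.48% of all genes. At so small a share a list of this length would hold few or none in any case. The median of the list was -0.01. The interval lay within a 2-fold change for 24 of the 25 (96.0%), against 86.6% of all genes. Gata1 was at 184, 219 and 254 FPKM in wildtype and at 226, 171 and 234 FPKM in knockout libraries, and Klf1, the activator of adult beta-globin, was at 319, 409 and 404 FPKM in wildtype and at 384, 309 and 410 FPKM in knockout libraries. In both genes knockout replicate 2 was the lowest of the 3 knockout libraries and the groups overlapped. The 29 genes of the red cell membrane skeleton had a median of -0.0042. The interval of 28 (96.6%) lay within a 2-fold change, beside the 86.6% of all genes. Slc4a1, the anion exchanger band 3, was at 3689, 3426 and 3323 FPKM in wildtype and at 3239, 2994 and 3585 FPKM in knockout libraries. The 25 genes of erythropoietin, stem cell factor and glucocorticoid signalling had a median of 0.02, and Epor, the erythropoietin receptor, was at 198, 256 and 252 FPKM in wildtype and at 279, 203 and 299 FPKM in knockout libraries.

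Heme, globin and late maturation genes split by library and not by genotype. Alas2 was at 7090, 6379 and 4069 FPKM in wildtype and at 3284, 6811 and 3523 FPKM in knockout libraries. Bpgm, which makes the allosteric effector of hemoglobin, was at 2044, 1877 and 998 FPKM in wildtype and at 778, 1972 and 710 FPKM in knockout libraries. Bnip3l, which clears mitochondria from maturing red cells, was at 520, 463 and 312 FPKM in wildtype and at 272, 466 and 269 FPKM in knockout libraries. In all 3 genes the libraries with fewer reads (wildtype replicates 1 and 2, knockout replicate 2) were high and those with more reads were low, in both genotypes. The log2 difference of Alas2 was -0.41 ± 0.42, and -0.20 with log2 depth as a covariate, that of Bpgm was -0.60 ± 0.56 and -0.32, and that of Bnip3l was -0.38 ± 0.36 and -0.20. Among the deeper libraries alone, wildtype replicate 3 was above knockout replicates 1 and 3 for each of the 3 genes, and with 1 wildtype library there this has no test. Of the 9 tested globin genes 1 had non-overlapping libraries (11.1%, against 2.48% of all genes): Hbb-y, an embryonic globin, was at 1.68, 1.65 and 2.17 FPKM in wildtype and at 3.09, 2.22 and 2.24 FPKM in knockout libraries (log2 difference 0.31 ± 0.18). The 15 heme synthesis genes (median -0.05) and the 18 genes of iron uptake and storage (median -0.03) had 0 such members.

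Ribosomal protein genes were lower in the knockout mean almost throughout. Of 78 tested genes 76 had a negative log2 difference, against 47.3% of all genes, with a median of -0.15, and 10 had libraries that did not overlap, all lower (12.8%, against 1.4% of all genes that were lower in this way). Rps19, a small-subunit protein, was at 354, 352 and 496 FPKM in wildtype and at 324, 333 and 345 FPKM in knockout libraries. Rpl4, of the large subunit, was at 681, 676 and 979 FPKM in wildtype and at 635, 667 and 650 FPKM in knockout libraries. Wildtype replicate 3 was well above the other 5 libraries, which lay close together, and it was the highest library for all 78 genes. The median over the list lay 0.35 above the mean of the 6 libraries in wildtype replicate 3 and between -0.13 and -0.04 in the other 5. Without wildtype replicate 3 the median difference was -0.01, and 41 of the 78 were negative. No member was at an unadjusted limma p below 0.05, against 0.451% of all genes.

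Nuclear genes of the respiratory chain and genes of DNA replication had the same library as their highest. Of 56 respiratory chain genes 46 had a negative difference (median -0.10), against 47.3% of all genes, and 5 had non-overlapping libraries, all lower (8.93%, against 1.4% of all genes). Uqcrh, a subunit of complex III, was at 342, 285 and 337 FPKM in wildtype and at 268, 284 and 275 FPKM in knockout libraries, where wildtype replicate 2 was nearly level with knockout replicate 2. Wildtype replicate 3 was highest for 48 of the 56, and without it the median was 0.09, with 17 negative. Of 40 replication genes 36 had a negative difference (median -0.11) and 0 had non-overlapping libraries. Pcna, the sliding clamp of DNA polymerase, was at 541, 629 and 886 FPKM in wildtype and at 655, 541 and 657 FPKM in knockout libraries. Wildtype replicate 3 was highest for all 40, and without it the median was 0.16 and 0 of the 40 were negative. Mitosis genes had a median of 0.03 over 44 genes, with 0 non-overlapping members.

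**Figure D5:**
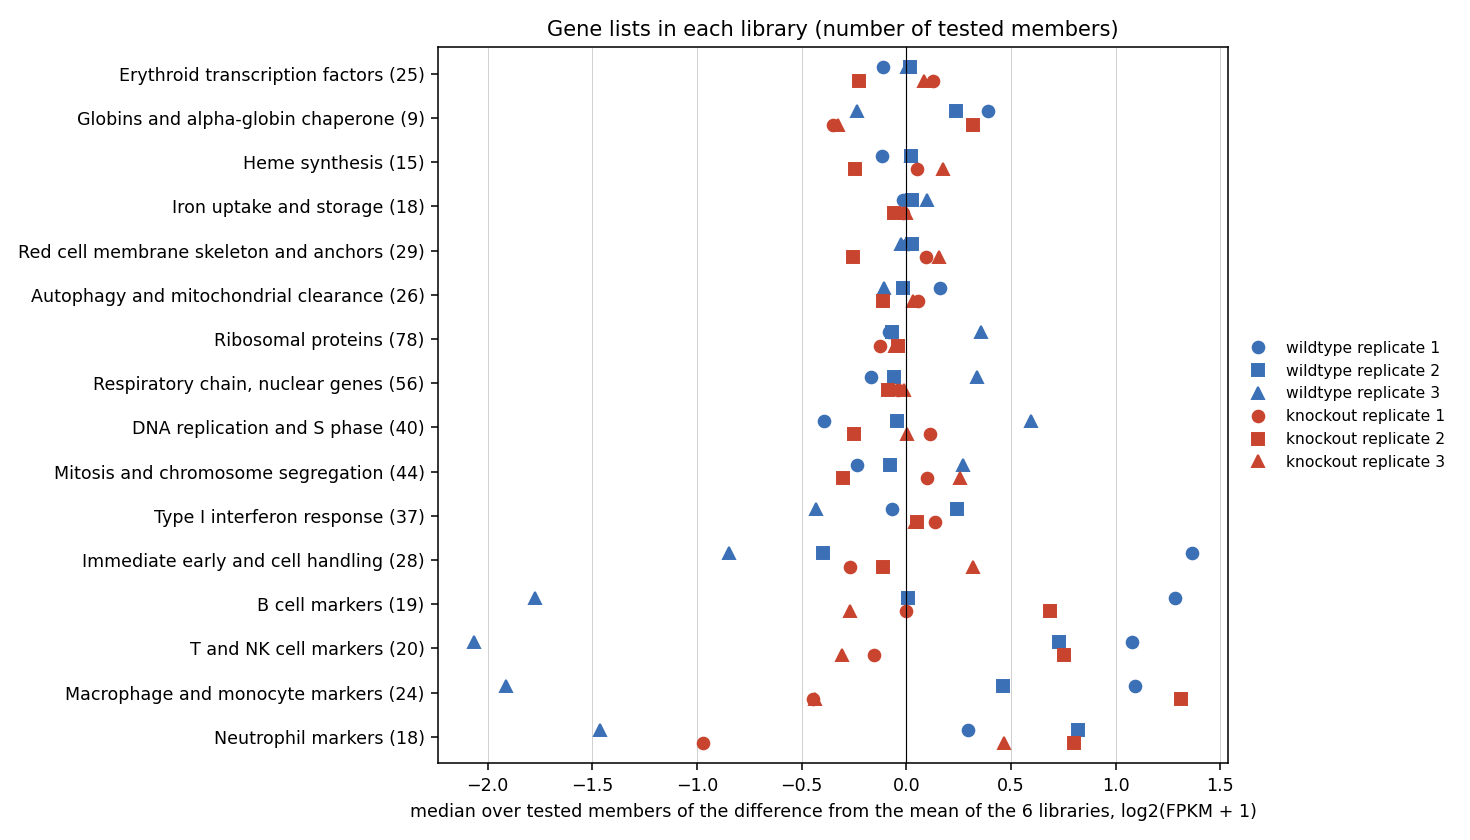
For 16 gene lists (rows, with the number of tested members), the median over members of the difference between each library and the mean of the 6 libraries on the log2(FPKM + 1) scale, in blue for wildtype and red for knockout replicates. Blue and red points overlap in every row, and wildtype replicate 3 (blue triangle) is the highest library for ribosomal proteins and the lowest for the 4 leukocyte rows.

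Most markers of B cells, macrophages, T and NK cells and neutrophils were higher in the knockout mean of log2(FPKM + 1). They varied more within wildtype than between genotypes. The difference was positive for 18 of 19 B cell markers (median 0.36) and 23 of 24 macrophage markers (median 0.30). It was also positive for 16 of 20 T and NK cell markers (median 0.18) and 17 of 18 neutrophil markers (median 0.16). Over all genes 52.7% were positive. Non-overlapping libraries were found for 0 of these markers, against 2.48% of all genes. Basophil and mast cell markers did not share the direction, with 4 of 9 positive and a median of -0.0045. Cd74, the invariant chain of antigen presentation, was at 751, 269 and 49.6 FPKM in wildtype and at 182, 509 and 384 FPKM in knockout libraries. Lyz2, the macrophage lysozyme, was at 346, 185 and 49.6 FPKM in wildtype and at 96.5, 241 and 247 FPKM in knockout libraries. The lowest wildtype library was below all knockout libraries and the highest wildtype library above all of them. The summed level of the B cell list ran from 96.2 to 1524 FPKM in wildtype and from 391 to 963 FPKM in knockout libraries. Without wildtype replicate 3 the medians turned to -0.45, -0.61, -0.70 and -0.39 for the B cell, macrophage, T and NK cell, and neutrophil lists. In bulk samples, fewer cells of a type and less RNA per cell cannot be told apart. The part of these cells in the values of other genes was not tested beyond a limma fit that took the mean of the leukocyte markers as a covariate, which gave 0 calls and 157 genes at an unadjusted p below 0.05.

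Interferon genes were higher in the knockout mean and immediate early genes lower. Of 37 tested genes of the type I interferon response 30 had a positive difference (median 0.10), against 52.7% of all genes. Non-overlapping libraries were found for 0 of the 37, against 2.48% of all genes. Stat2, a transcription factor of the response, was at 30.4, 37.7 and 24.0 FPKM in wildtype and at 41.8, 34.8 and 39.6 FPKM in knockout libraries. Isg15, a ubiquitin-like effector, was at 637, 887 and 370 FPKM in wildtype and at 530, 762 and 510 FPKM in knockout libraries, with the knockout values inside the wildtype range. The median of the interferon list was -0.04 without wildtype replicate 3. Immediate early genes, which respond to cell handling, had a median of -0.15 over 28 genes, -0.47 without wildtype replicate 3 and 0.49 without wildtype replicate 1. Jund, an AP-1 subunit, was at 127, 64.6 and 135 FPKM in wildtype and at 77.3, 58.2 and 70.2 FPKM in knockout libraries.

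Of all 43 gene lists, 42 had library medians that overlapped between the genotypes, and the exception was the methyltransferase-like 7 family with its 3 tested members on chromosome 15. That list was built around the gene of lowest p, and 2 of its 3 members passed the filter only through knockout and heterozygous libraries, so its place follows from that choice. With a filter at 5 FPKM it keeps Mettl7a1 alone, at -0.28. Autophagy genes had 2 non-overlapping members of 26, both lower (7.69%, against 1.4% of all genes). Atg7, an E1-like enzyme of autophagosome formation, was at 5.34, 5.59 and 6.01 FPKM in wildtype and at 3.70, 4.98 and 5.09 FPKM in knockout libraries, and Gabarap, a protein of the autophagosome membrane, was at 256.5, 245 and 256 FPKM in wildtype and at 193, 242 and 227 FPKM in knockout libraries. Each gap was small beside the spread of the knockout libraries. Proteasome subunits (40 genes, median -0.04), p53 targets (20 genes, median 0.05), glycolysis (23 genes, median 0.04), heat shock chaperones (26 genes, median -0.01) and BMP and TGF-beta signalling (16 genes, median 0.04) had medians within 0.1 of 0, as had 31 of the 43 lists in all. 36 of the lists held no member at an unadjusted limma p below 0.05. Only 43 of all 9543 genes (0.451%) reached that level, so most lists of this length would hold none in any case.

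The library quality weights that limma estimates changed the outcome. With weights by residual maximum likelihood, an iteration that stopped before it converged, 1021 genes were called higher and 889 lower, with a weight of 42.9 for wildtype replicate 2 and of 0.12 for wildtype replicate 3. With weights estimated gene by gene, added after seeing the data, limma called 0 genes, with a lowest adjusted p of 0.178 and 2122 genes at an unadjusted p below 0.05. The fit weighted in the first way rests chiefly on a single wildtype library. No other alternative tried called a gene at an adjusted p below 0.05.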

How the data were processed

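RNA sequencing of CD71+Ter119+ spleen cells gave 9 libraries, of which 3 knockout and 3 wildtype were compared. The authors deposited 1 table of FPKM values. Per the submitters' processing notes TopHat, Picard, DESeq2 and mm10 were used, with no versions or roles. The sources used here give neither annotation nor strandedness, and FPKM and RPKM cannot be told apart. Each of the 14147 genes with 2 or more libraries above 0 had values that were whole multiples of a gene-specific step (within 0.05 of a read). Dividing by it gave 7052111 to 14231427 reads per library. Positions came from GENCODE M21, matched for 98.6% of rows.

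Limma 3.58.1 (R 4.3.3) fitted log2(FPKM + 1) for genes with at least 1 FPKM in 3 libraries, with a mean per genotype over all 9 libraries and a trended prior; p-values are 2-sided. With 3 libraries a group, the smallest p of an exact permutation test is 0.1. The fit was tested on simulated data. Libraries were called non-overlapping where the lowest of one genotype exceeded the highest of the other. 50-base words of GENCODE transcripts were compared between genes. Other steps ran in Python 3.11.15 (numpy 2.4.6; pandas 2.3.3; matplotlib 3.10.9).

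The members, the 43 lists and the tests were chosen with earlier results of these data known. Genes named were the Hedgehog lists, the 30 lowest p-values, the 2 highest members and the member of lowest p in each list, non-overlapping genes within 2 Mb of Dhh, the methyltransferase-like 7 family and 12 erythroid genes. Tmem106c, Gabarap, Rpl4, Rps19, Apobec3 and Entpd4 were chosen after their values were seen. Alternatives were another filter, pseudocount, normalization, covariates, library weights, a replicate block, voom and libraries left out in turn.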

Additional observations from a re-analysis of the deposited data

How the results depend on the processing

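Under 19 other settings and 1 added after seeing the data, the adjusted count stayed at 0 in each direction except with quality weights by residual maximum likelihood (1021 higher, 889 lower). The 43 genes at an unadjusted p below 0.05 became 18 with a filter at 5 FPKM (fewer genes tested), 182 with no filter (more genes tested), 25 with knockout and wildtype libraries only (fewer samples), 77 with depth and 157 with the leukocyte mean as a covariate, 3697 and 2122 with the 2 kinds of quality weights and 2097 without wildtype replicate 3 and knockout replicate 2 together. That last fit sets 2 shallower wildtype against 2 deeper knockout libraries, so depth and genotype cannot be told apart in it. Leaving out 1 library gave 32 to 252 (133, 88 and 228 without wildtype replicates 1, 2 and 3, 54, 252 and 32 without knockout replicates 1, 2 and 3). For the covariates, weights and single libraries the cause was not tested. The 7 genes within 2 Mb of Dhh became 4 with the filter at 5 FPKM, 24 and 18 with the quality weights, 22 without both libraries and 3 to 7 without 1 library.

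Replicate numbers do not pair the libraries by any label, and deviations of same-numbered wildtype and knockout libraries from their group means correlated at -0.57, 0.51 and 0.33. With the replicate number as a block limma called 0 genes, 56 were at an unadjusted p below 0.05, and 6 of these lay within 2 Mb of Dhh.

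Of 609 values for 33 genes (the lowest p, the window around Dhh and the methyltransferase-like 7 family), 608 kept their direction. The exception was Mettl7a1, which ran from -0.45 to 0.04 with 1 library left out, the latter (0.0435) without knockout replicate 2. Most of the 33 genes were chosen by low p or by non-overlapping libraries in these data. Their direction was thus nearly fixed beforehand, and the count of 608 tests nothing. List medians changed sign in 201 of 816 values, and 39 of the 43 lists changed at least once. Low genes are limited by depth: 16 of the 30 genes of lowest p had a mean below 5 FPKM.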

Other observations

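A few genes were far higher in 1 or 2 libraries than in the others, without following the genotype. Apobec3, an antiviral cytidine deaminase gene on chromosome 15, was at 96.8, 6.06 and 9.40 FPKM in wildtype, at 6.85, 7.19 and 6.10 FPKM in knockout and at 103, 7.30 and 6.21 FPKM in heterozygous replicates. It was high in wildtype and heterozygous replicate 1 and low in the other 7 libraries. The knockout minus wildtype log2 difference of Apobec3 was -1.33 ± 1.15. Entpd4, a Golgi nucleotidase gene on chromosome 14 that did not pass the expression filter, was at 2.28 FPKM in wildtype replicate 1 and at or below 0.0477 FPKM in the other 8 libraries. Both genes separated wildtype replicate 1 from wildtype replicates 2 and 3.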
